A study of Mus musculus with 29 samples.

Results

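Lhx1, Pou3f3, Irx1, Irx2, Irx3, Hnf4a, Emx2 and Tfap2b encode transcription factors that mark or pattern the early nephron and its segments. They were chosen by gene symbol, and all 8 were found among the 23918 usable symbols of an expression table of 29 mouse kidney libraries. Nephrons arise when cap mesenchyme cells that express Six2, the nephron progenitor cells (NPCs), condense, turn into an epithelial renal vesicle and elongate through comma-shaped and S-shaped bodies. Lhx1 is a LIM homeodomain factor that is switched on in the pretubular aggregate and renal vesicle and is required for their patterning. Pou3f3 and the Iroquois homeodomain factors Irx1, Irx2 and Irx3 mark the middle and distal parts of the S-shaped body, Hnf4a is the nuclear receptor of proximal tubule differentiation, and Tfap2b is an AP-2 factor of the distal nephron. Emx2 is a homeodomain factor of the urogenital system that the ureteric bud, the precursor of the collecting ducts, requires.

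The study sequenced RNA from kidney cells of mice of a C57BL/6 and 129 hybrid background that carry Six2-GCE, an allele that puts a green fluorescent protein fused to an inducible Cre under the control of Six2. Every group carries this allele, the controls included. The groups are E12.5 kidney cells labelled Six2-negative (2 libraries), NPC lines at passage 20 and at passage 80 (4 libraries each, 1 line from each of the ages E11.5, E13.5, E16.5 and postnatal day 1, P1), medium withdrawal cultures (9 libraries) and primary NPCs (2 libraries for each of these 4 ages and 2 for E12.5). The lines were kept as 3D aggregates in NPSR medium and passaged at 4-day intervals. Since there is 1 line per age, age of origin and the particular line cannot be told apart. The withdrawal cultures are labelled E13.5 and lacked heparin, Y27632 (a ROCK inhibitor), BMP7 or CHIR (a GSK3 inhibitor) for 4 or 8 days. LIF was left out for 8 days alone. Each condition has 1 library, and none is of complete medium. These 9 libraries were made from total RNA and the other 20 from poly(A) RNA, so levels are compared only within each kind. The labels do not say whether the 2 libraries of a primary group came from separate animals, so a p-value measures the spread between libraries, which may be technical in part.

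Levels are in RPKM (reads divided by transcript length and by the mapped reads of the library) and can be compared between genes. Depth, estimated from the steps between low values, ran from 6.8 to 33.9 M (1e6) reads over the 29 libraries, with a median of 16.4 M. A summed list of 19 cap mesenchyme markers lay between 1308 and 2174 RPKM in the 10 primary NPC libraries, between 1065 and 1742 RPKM in the 8 lines and at 298 and 254 RPKM in the Six2-negative cells. Bulk RNA cannot tell fewer cells of a type from less RNA per cell. Replicate libraries of some ages stood apart. P1 library 1 held 7181 RPKM over 14 distal tubule markers against 640 in library 2, E16.5 library 1 held 667 RPKM over 10 macrophage markers against 51.1 in library 2, and E12.5 library 1 held 94.5 RPKM over 10 endothelial markers against 3.52 in library 2. Values of the members are therefore given for each library.

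**Figure D1:**
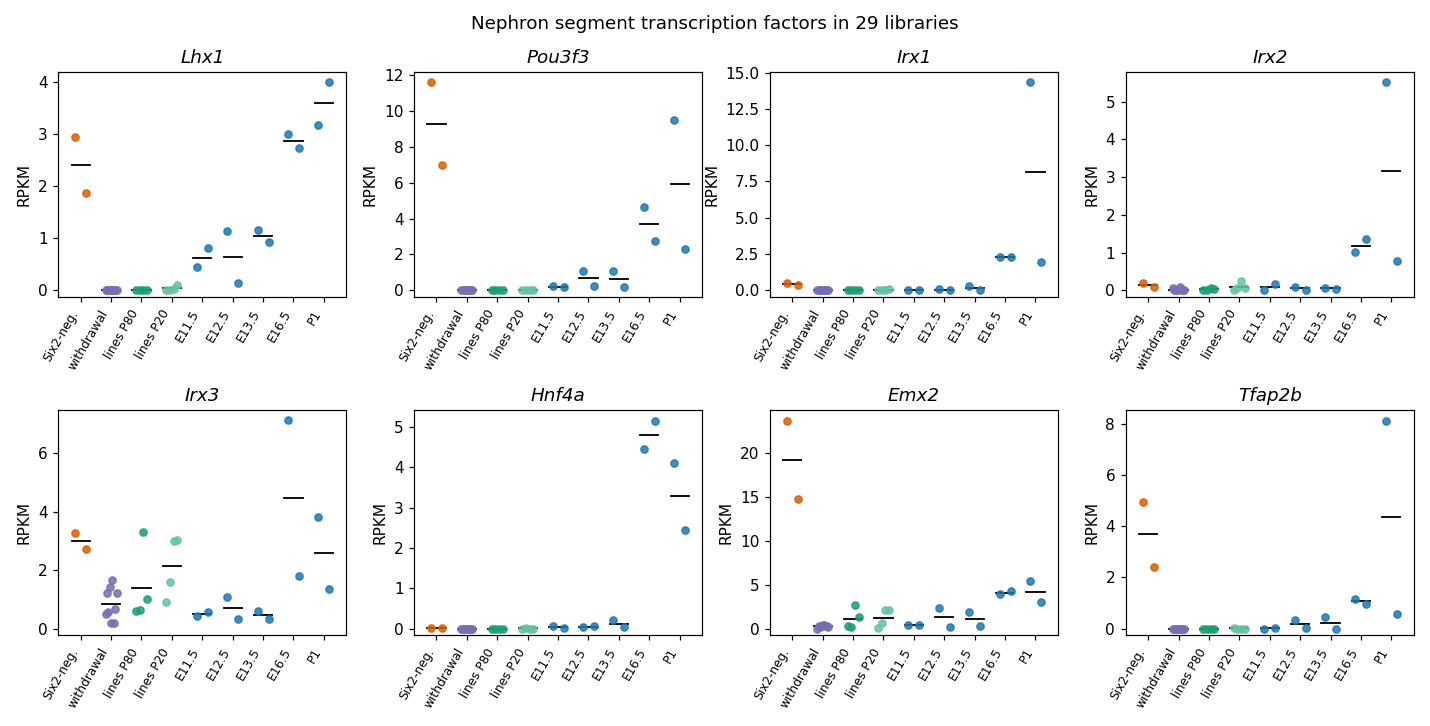
RPKM of each of the 8 factors (1 panel each, linear axes of different height) in every library (points) by group, with the group mean as a bar; the withdrawal column pools 9 cultures that each lack 1 medium component. Hnf4a points rise off the axis only at E16.5 and P1, Emx2 is highest in the Six2-negative cells at 23.7 and 14.8 RPKM, and Irx3 and Emx2 alone stay above 0.5 RPKM in some of the lines.

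Lhx1, the renal vesicle factor, had 2.94 and 1.88 RPKM in Six2-negative cells, 0.452 and 0.805 RPKM in E11.5 NPCs, 1.14 and 0.131 RPKM at E12.5, 1.16 and 0.924 RPKM at E13.5, 3.01 and 2.73 RPKM at E16.5 and 3.19 and 4.00 RPKM at P1. The order of group means was P1, E16.5, Six2-negative, E13.5, E12.5 and E11.5, and among neighbours in it only P1 and E16.5, and Six2-negative and E13.5, had ranges that did not overlap. In the lines Lhx1 was listed at 0 in 6 of 8 libraries, and the other values were 0.0328 RPKM in the E16.5 line and 0.107 RPKM in the P1 line, both at passage 20. These values correspond to about 2 and 3 reads. Lhx1os, the antisense transcript beside Lhx1, had the profile most like that of Lhx1 over the 20 poly(A) libraries (Pearson r = 0.98 of log2(RPKM + 1), a description), followed by Myo5b (0.96) and Pnck (0.95). In mm9 Lhx1 lies on the minus strand of chromosome 11 with its start at base 84338923. Lhx1os starts at base 84339162 on the plus strand, so the annotated genes do not overlap. The counting is not stated to use strand, so reads of partners that do overlap a factor may be shared.

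Pou3f3, which the loop of Henle and distal tubule require, had 11.6 and 6.98 RPKM in Six2-negative cells, 0.215 and 0.161 RPKM at E11.5, 1.08 and 0.242 RPKM at E12.5, 1.06 and 0.159 RPKM at E13.5, 4.65 and 2.72 RPKM at E16.5 and 9.50 and 2.32 RPKM at P1. The Six2-negative and P1 ranges overlapped, as did those of P1 and E16.5. Tfap2b had 4.95 and 2.40 RPKM in Six2-negative cells, 0 and 0.0283 RPKM at E11.5, 0.337 and 0.0234 RPKM at E12.5, 0.450 and 0 RPKM at E13.5, 1.17 and 0.965 RPKM at E16.5 and 8.13 and 0.579 RPKM at P1. Its P1 libraries differed 14.0-fold and enclosed the values of E16.5 and of Six2-negative cells. In the lines, 1 read of Pou3f3 (0.0130 RPKM, E11.5 line at passage 80) and 1 of Tfap2b (0.00749 RPKM, E11.5 line at passage 20) were the only signal in 8 libraries. Across the 20 poly(A) libraries Pou3f3 and Tfap2b had a Pearson r of 0.95 with each other. The profiles most like Pou3f3 were those of Pou3f3os (0.99), the epithelial polarity gene Crb3 (0.99) and Ap1m2 (0.99), a sorting adaptor subunit of epithelial cells. Those most like Tfap2b were Dcdc2a (0.98), Tmed6 (0.97) and the tight junction gene Ocln (0.96).

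Irx1 and Irx2 lie on mouse chromosome 13, with Irx4 as the third gene of the cluster; in mm9 the gap between Irx4 and Irx2 is 626.3 kb and that between Irx2 and Irx1 is 665.1 kb. Irx1 had 0.531 and 0.354 RPKM in Six2-negative cells, at most 0.293 RPKM in the 6 NPC libraries of E11.5 to E13.5, 2.32 and 2.31 RPKM at E16.5 and 14.3 and 1.97 RPKM at P1. Irx2 had 0.194 and 0.0776 RPKM in Six2-negative cells, at most 0.159 RPKM in the 6 libraries of E11.5 to E13.5, 1.02 and 1.35 RPKM at E16.5 and 5.51 and 0.789 RPKM at P1. For both genes the P1 libraries enclosed the E16.5 values, and all 4 libraries of E16.5 and P1 lay above every other library of the series. The P1 difference between libraries was 7.29-fold for Irx1 and 6.99-fold for Irx2. The Pearson r between Irx1 and Irx2 over the 20 poly(A) libraries was 0.98, and both were most like genes of differentiated tubule cells, Irx1 with Tmem27 and Sostdc1 (0.99 each), Irx2 with the proton pump subunit Atp6v0a4 and the chloride channel subunit Bsnd (0.97 each). No line held more than about 1 read of Irx1.

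Irx3, on chromosome 8, had a different profile. It had 3.26 and 2.71 RPKM in Six2-negative cells, 0.429 and 0.574 RPKM at E11.5, 1.07 and 0.310 RPKM at E12.5, 0.615 and 0.318 RPKM at E13.5, 7.14 and 1.79 RPKM at E16.5 and 3.82 and 1.36 RPKM at P1. It was detected in every line, from 0.605 RPKM in the E11.5 line at passage 80 to 3.29 RPKM in the E16.5 line at passage 80, so the lines overlapped the primary libraries throughout. In the order of means, every neighbouring pair of groups overlapped. In mm9 the span of Irx3, introns included, overlaps that of an opposite-strand gene by 1240 bases. Overlap of exons was not computed, and reads from any shared exon bases cannot be told apart without strand. The profiles most like Irx3 were those of the epithelial genes Spint1, Vamp8 and St14 (0.94, 0.94 and 0.92), and its r with Irx1 was 0.51.

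Hnf4a had 0.00660 and 0.0211 RPKM in Six2-negative cells, 0.0554 and 0.0247 RPKM at E11.5, 0.0359 and 0.0534 RPKM at E12.5, 0.206 and 0.0366 RPKM at E13.5, 4.45 and 5.16 RPKM at E16.5 and 4.12 and 2.44 RPKM at P1. The E16.5 and P1 ranges did not overlap each other or any earlier library, and the Six2-negative values correspond to about 1 and 2 reads. It was listed at 0 in 7 of 8 lines, with 0.0189 RPKM (about 1 read) in the E13.5 line at passage 20. The ratio of library 1 to library 2 was 1.69 at P1 and 0.863 at E16.5 for Hnf4a, and at the low levels of E13.5 and E11.5 it was 5.63 and 2.25. In mm9 the span of Hnf4a, introns included, overlaps that of the opposite-strand gene Hnf4aos by 34913 bases. The longest Hnf4aos transcript has 839 bases. Overlap of exons was not computed, and reads from any shared exon bases cannot be told apart without strand. The profile of Hnf4a was most like those of proximal tubule and epithelial genes, Slc39a5 (0.99), Hdc (0.99) and the phosphate transporter Slc34a1 (0.99).

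Emx2 had 23.7 and 14.8 RPKM in Six2-negative cells, 0.353 and 0.407 RPKM at E11.5, 2.37 and 0.197 RPKM at E12.5, 1.91 and 0.254 RPKM at E13.5, 3.88 and 4.29 RPKM at E16.5 and 5.45 and 2.98 RPKM at P1. The Six2-negative libraries were above every other library of the series. The E16.5 and P1 libraries were above all 6 earlier NPC libraries, and library 1 was far above library 2 at E12.5 and E13.5. Emx2 lies 54 bases from the divergently transcribed Emx2os in mm9. Krt23 (0.92), Cldn3 (0.90) and Nfia (0.90) had the profiles most like it.

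Sequence around the start site is shown for Irx2, whose window held a searched motif, and for Lhx1, the factor called lower in the lines with the smallest adjusted p. RefSeq windows (GRCm38.p6, 300 bases spanning the start) were found for 7 of the 8 factors, and short motifs were searched on both strands. TCAAAG, the core of TCF/LEF sites, occurred in none of these windows and in 16% of 32817 windows of all genes. GTGGGAA, the core of sites of the Notch effector RBPJ, found in 6.39% of all windows, occurred as TTCCCAC in Irx2, 163 bases before the start. This match is in capitals, and the windows read 5′ to 3′ on the strand of the gene, plus for Irx2 and minus for Lhx1. A match is a description of letters and not a site.
Irx2, chr13:72628570-72628869: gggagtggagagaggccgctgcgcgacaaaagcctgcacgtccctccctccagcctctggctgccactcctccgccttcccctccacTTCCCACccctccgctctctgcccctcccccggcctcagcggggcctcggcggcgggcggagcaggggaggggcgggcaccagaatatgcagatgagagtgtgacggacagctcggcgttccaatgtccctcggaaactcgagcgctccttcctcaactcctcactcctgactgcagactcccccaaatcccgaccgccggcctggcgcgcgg
Lhx1, chr11:84525485-84525784: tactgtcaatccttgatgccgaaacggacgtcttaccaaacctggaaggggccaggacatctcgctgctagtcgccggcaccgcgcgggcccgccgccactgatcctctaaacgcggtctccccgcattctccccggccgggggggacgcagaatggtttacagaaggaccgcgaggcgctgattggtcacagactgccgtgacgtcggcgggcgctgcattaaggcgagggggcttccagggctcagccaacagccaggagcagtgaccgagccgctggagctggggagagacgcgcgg
The Irx2 window has 25 CpGs, the Lhx1 window has 31 and each of the 2 Hnf4a windows has 4, against a median of 7 over all windows.

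The Six2-negative libraries were set against the E12.5 NPC libraries, both of the same age. Emx2, Pou3f3 and Lhx1 were higher in Six2-negative cells, and no factor was lower. Emx2 was higher by a log2 change of 3.30 ± 0.53 (SE; limma adjusted p = 0.00541), Pou3f3 by 2.64 ± 0.54 (adjusted p = 0.0143) and Lhx1 by 1.11 ± 0.30 (adjusted p = 0.0432). For each of the 3 genes both Six2-negative libraries lay above both E12.5 libraries. Folds are on the log2(RPKM + 1) scale, which understates the change of low genes. The count of 3 of 8 higher stood beside 9.28% of 13574 genes called higher (13.6% called in either direction), and the median change of the 8 was 1.19 against 0.02 for all genes. Tfap2b (1.94 ± 0.68, adjusted p = 0.0980) and Irx3 (1.27 ± 0.50, adjusted p = 0.140) did not pass in this limma fit, though for both genes each Six2-negative library was above each E12.5 library. Irx1, Irx2 and Hnf4a had log2 changes of 0.46, 0.11 and -0.04. The Lhx1 call was lost with a pseudocount of 0.1 (limma adjusted p = 0.0605), with no filter (0.0615), with quantile scaling (0.87, 0.106) and with table set as a term (0.0652), and Tfap2b was called with that term (2.34, 0.0359). The table set is a division of the libraries by how the last lines of their tables were written.

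The antisense and divergent partners moved as well, with Pou3f3os higher by 3.55 ± 0.78 (limma adjusted p = 0.0187), Lhx1os by 1.64 ± 0.42 (0.0351) and Emx2os by 1.48 ± 0.33 (0.0188). No mm9 position was found for Pou3f3os, so its overlap with Pou3f3 was not checked, and reads from any shared bases cannot be told apart without strand. In a list of 26 other segment and early nephron factors, 15 were tested, of which 4 were higher and 3 lower. Over all genes 13.6% were called in either direction. Tfap2a, the paralog of Tfap2b, was higher by 2.55 ± 0.40 (limma adjusted p = 0.00484), while Pax8, a paired box factor of the early nephron, was lower by -2.32 ± 0.27 (0.00167). Of 18 renal vesicle genes 4 were higher and 7 lower, with Fgf8 lower (-4.31 ± 0.26, limma adjusted p = 0.000116), the growth factor that acts upstream of Lhx1 in mice, and Wnt4, the inducer of epithelial conversion, lower too (-2.29 ± 0.41, 0.00849).

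Markers of other cells differed in the same comparison. Summed epithelium markers were 614 and 491 RPKM in Six2-negative cells against 72.9 and 39.2 RPKM in E12.5 NPCs (6 of 14 higher), ureteric bud markers 444 and 286 against 108 and 92.8 RPKM (5 of 16 higher), and stroma markers 1339 and 1604 against 424 and 368 RPKM (12 of 16 higher). Erythroid markers summed to 2564 and 6302 RPKM in Six2-negative cells against 46.0 and 25.4 RPKM in E12.5 NPCs (9 of 9 higher). None of 12 tested loop of Henle markers and none of 16 tested proximal tubule markers was higher. The part of these cells in the Emx2, Pou3f3 and Lhx1 differences was not tested. E12.5 library 2 held less than library 1 of 7 of the 8 factors, all but Hnf4a, and of the epithelium and endothelial markers, as the plot of ratios between libraries shows. Without it Emx2 remained called, while Pou3f3 (2.27, limma adjusted p = 0.124) and Lhx1 (0.66, 0.284) did not. Without Six2-negative library 1 the values were 2.31 (0.0938) for Pou3f3 and 0.89 (0.205) for Lhx1, and without library 2 they were 2.97 (0.0637) and 1.34 (0.112). Lhx1 also lost its call when either library of E11.5 or E13.5 was left out, with an unchanged log2 change of 1.11.

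**Figure D2:**
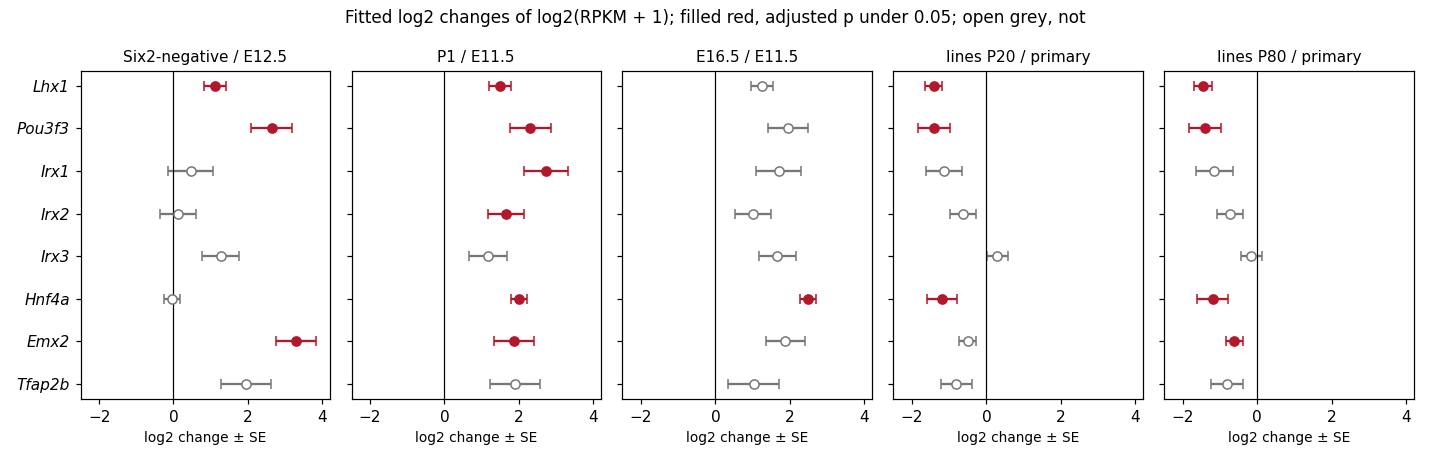
Fitted log2 change of log2(RPKM + 1) with its standard error for the 8 factors (rows) in 5 comparisons (panels); filled red points have a limma adjusted p under 0.05 and open grey points do not. The filled points are to the right in the Six2-negative and age comparisons (3, 6 and 1 factors) and to the left in the comparisons of lines with primary NPCs (3 and 4 factors).

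Age was compared within the primary NPCs, with P1 and E16.5 each set against the same 2 E11.5 libraries, so the comparisons share those libraries. At P1, 6 of the 8 factors were higher than at E11.5, against 17.5% of all 13574 genes higher (35.1% called in either direction). They were Irx1 (log2 change 2.72 ± 0.60, limma adjusted p = 0.0107), Pou3f3 (2.31 ± 0.54, 0.0137), Hnf4a (2.01 ± 0.22, 0.000857), Emx2 (1.88 ± 0.53, 0.0267), Irx2 (1.66 ± 0.48, 0.0287) and Lhx1 (1.499 ± 0.303, 0.00803). Tfap2b (1.90 ± 0.68, limma adjusted p = 0.0558) and Irx3 (1.17 ± 0.50, 0.0987) did not pass, and all 8 had both P1 libraries above both E11.5 libraries. Irx1, Irx2 and Hnf4a reach 1 RPKM in no library but those of E16.5 and P1, so they entered the test through the groups where they are high. Quantile scaling moved the median of all genes in this comparison to -0.12, against 0.04, and the split of calls to 1603 higher and 2699 lower, against 2369 and 2400; Emx2 (1.35, limma adjusted p = 0.0662) and Irx2 (1.26, 0.0699) then lost their calls.

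At E16.5, 1 of the 8, Hnf4a, was higher than at E11.5, by 2.48 ± 0.22 (limma adjusted p = 0.00185), beside 1.27% of genes higher (1.72% called in either direction, split 172 higher and 62 lower, and 93 and 65 with quantile scaling). The other 7 factors had log2 changes of 1.02 to 1.95 and did not pass. Between P1 and E16.5 none of the 8 was called by limma, beside 6.48% of genes. Hnf4a came nearest, with a log2 change of -0.47 ± 0.22 (limma adjusted p = 0.191), and at an unadjusted p under 0.05 the count was 0 of the 8, beside 3933 of the 13574 genes.

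Of the 15 other segment factors tested in the list of 26, 3 were higher and 2 lower at P1 than at E11.5. This was near the share of all genes, 17.5% higher and 35.1% called in either direction. The median change was 0.08 in the list and 0.04 over all genes. Emx1, the paralog of Emx2, was higher by 2.81 ± 0.73 (limma adjusted p = 0.0189). The SRY-box factor Sox9 was lower by -1.78 ± 0.31 (limma adjusted p = 0.00479). Of 18 renal vesicle genes 11 were higher at P1 and none lower, the largest changes being Clec18a (2.66 ± 0.43, limma adjusted p = 0.00382), the Wnt inhibitor Dkk1 (2.50 ± 0.31, 0.00143) and Npy (2.04 ± 0.45, 0.0107).

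Markers of differentiated tubule and of other cells were higher in the same libraries. All 12 tested loop of Henle markers and 15 of 16 proximal tubule markers were higher at P1 than at E11.5, and their summed levels were 1400 and 134.5 RPKM for loop of Henle at P1 against 37.6 and 38.8 RPKM at E11.5, and 368 and 169 RPKM for proximal tubule at P1 against 22.2 and 20.5 RPKM at E11.5. The 19 cap mesenchyme markers summed to 1308 and 2055 RPKM at P1, against 1815 and 1888 RPKM at E11.5, with 4 higher and 6 lower. Ureteric bud markers summed to 643 and 208 RPKM at P1 against 91.9 and 93.4 RPKM at E11.5 (7 of 16 higher), and stroma markers to 635 and 682 RPKM against 272 and 326 RPKM (10 of 16 higher, 1 lower). Erythroid markers summed to 188 and 401 RPKM at P1 against 1.90 and 12.4 RPKM at E11.5 (3 of 9 higher), and macrophage markers to 1333 and 125.5 RPKM against 73.6 and 51.5 RPKM (0 of 10 called). The part of these cells in the changes of the factors was not tested.

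**Figure D3:**
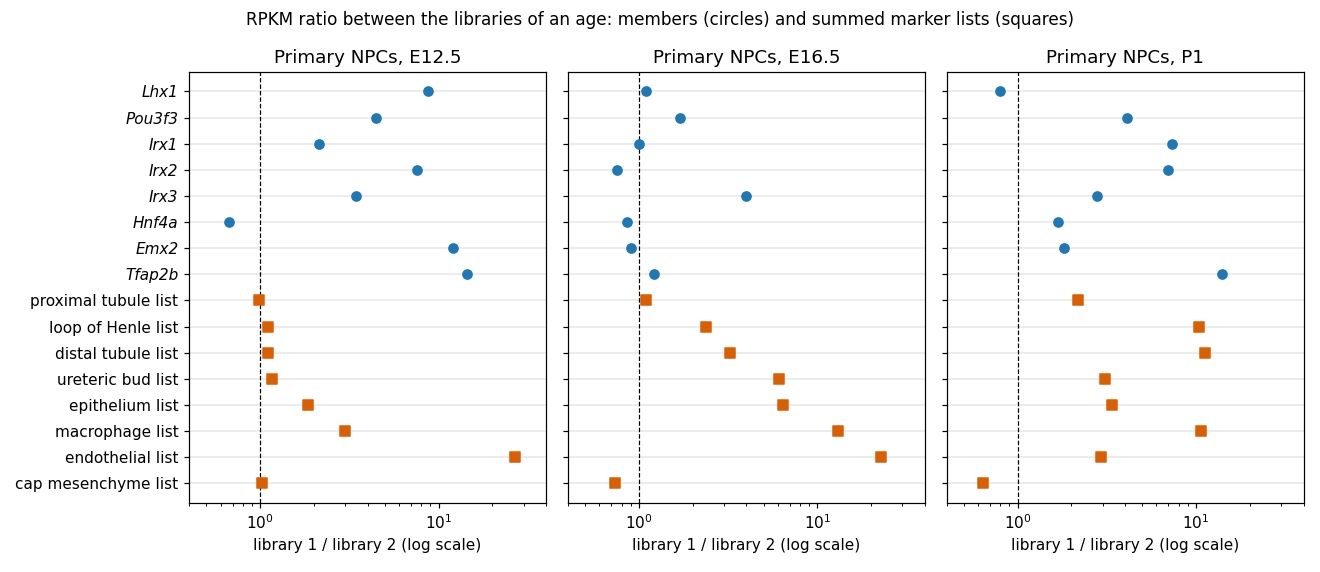
Ratio of library 1 to library 2 (log scale, dashed line at 1) for primary NPCs of E12.5, E16.5 and P1, for the 8 factors (circles, RPKM) and for summed marker lists (squares). At P1, Tfap2b, Irx1 and Irx2 lie at 14.0, 7.29 and 6.99 beside loop of Henle markers at 10.4 and distal tubule markers at 11.2, while at E16.5 the endothelial and macrophage lists lie at 22.7 and 13.1 and Irx3 has the highest ratio of the 8 factors, at 3.99.

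The 8 factors differed to graded extents between the P1 libraries. The ratio of library 1 to library 2 was 14.0 for Tfap2b, 7.29 for Irx1, 6.99 for Irx2, 4.10 for Pou3f3, 2.80 for Irx3, 1.83 for Emx2, 1.69 for Hnf4a and 0.797 for Lhx1. The same ratio was 11.2 for distal tubule, 10.6 for macrophage, 10.4 for loop of Henle, 3.36 for epithelium, 3.10 for ureteric bud and 2.17 for proximal tubule markers. Without P1 library 1, Hnf4a, Irx1, Irx2 and Lhx1 remained higher than at E11.5, while Pou3f3 (1.48, limma adjusted p = 0.0685) and Emx2 (1.53, 0.144) lost their calls. Without P1 library 2, which leaves library 1 alone at P1, the log2 change against E11.5 was 3.17 for Tfap2b and 1.68 for Irx3. Against E16.5 it was then 2.21 for Irx1, 1.58 for Irx2 and 2.15 for Tfap2b. Without P1 library 1 the changes of Irx1, Irx2 and Tfap2b against E16.5 had the other sign (-0.16, -0.28 and -0.39). Leaving out either E11.5 library ended the calls of Irx1, Irx2, Pou3f3 and Emx2, and leaving out library 1 also that of Lhx1, with limma adjusted p between 0.0538 and 0.131, and without either P1 library Irx1, Irx2 and Pou3f3 were called at E16.5 (1.70, 1.02 and 1.95).

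The lines were compared with primary NPCs of the 4 ages from which they were derived, with age of origin as a term. Lhx1, Pou3f3 and Hnf4a were lower at both passages and no factor was higher. In the 8 line libraries only Irx3 and Emx2 reached the level that the filter asks for, so Lhx1, Pou3f3 and Hnf4a entered this test through the primary libraries, where they are high. The fit gives 1 change per passage for all 4 ages, and so averages over ages whose primary levels are unlike. All 3 factors were higher at E16.5 and P1 than at E11.5 and E13.5. Primary Hnf4a, for example, was 0.0554 and 0.0247 RPKM at E11.5 and 4.45 and 5.16 RPKM at E16.5. At passage 20 Lhx1 had a log2 change of -1.42 ± 0.24 (limma adjusted p = 0.0005), Pou3f3 of -1.41 ± 0.43 (0.0216) and Hnf4a of -1.20 ± 0.40 (0.0350). These 3 of 8 stood beside 21.6% of 13612 genes called lower (36.1% called in either direction). At passage 80 Lhx1 (-1.47, limma adjusted p = 0.000389), Pou3f3 (-1.40, 0.0205), Hnf4a (-1.21, 0.0318) and Emx2 (-0.62 ± 0.23, 0.0470) were called lower, 4 of 8 beside 24% of genes (39.3% in either direction). Trimmed-mean scaling changed the split of all calls to 2462 higher and 2315 lower at passage 20, against 1974 and 2942, and to 2655 and 2582 at passage 80, against 2083 and 3268, and left these factors called except Emx2. Every line library lay below every primary library for Lhx1, Pou3f3 and Hnf4a, including those of E11.5, where Hnf4a itself rests on 2 to 3 reads. Irx1, Irx2 and Tfap2b had log2 changes between -1.16 and -0.64 at both passages and did not pass, Emx2 had -0.50 at passage 20 and did not pass there, and Irx3 had 0.29 at passage 20 and -0.16 at passage 80. With a pseudocount of 0.1, Irx1 was called lower at both passages (-2.62, limma adjusted p = 0.0428, and -2.75, 0.0328), and Irx2 (-1.98, 0.0457) and Tfap2b (-2.38, 0.0462) at passage 80, while Emx2 was not called there (-1.08, 0.0739).

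The Emx2 call at passage 80 ended when any 1 of 14 of the 16 libraries was left out, with limma adjusted p up to 0.177. Hnf4a lost its calls in 5 of 16 such fits at each passage, without an E16.5 primary library, P1 library 2 or the E16.5 or P1 line, with adjusted p up to 0.158, and Pou3f3 in 2 of 16 at each passage, without the E16.5 or the P1 line, with adjusted p up to 0.0878. Libraries fall into a pair of sets by how the table's last lines were written, with all passage 20 lines in one and all passage 80 lines in the other. Of the primary libraries in these fits, library 1 of each age is in the set of the passage 20 lines. Library 2 of each age is in the set of the passage 80 lines. Table set and library number therefore cannot be told apart among them. With the term or within a set, passage 20 lines are set against library 1 and passage 80 lines against library 2. With table set as a planned term, Hnf4a was not called at passage 20 or 80 (limma adjusted p = 0.0663 and 0.0993). Pou3f3 (-1.01, limma adjusted p = 0.117) and Emx2 (-0.40, 0.233) were not called at passage 80. Lhx1 stayed called at both passages and Pou3f3 at passage 20, where Emx2 was called lower (-0.72, limma adjusted p = 0.0428). In fits within a set, an alternative chosen after seeing the data, Lhx1 had a log2 change of -1.38 (limma adjusted p = 0.0607) at passage 20 and was still called at passage 80, Pou3f3 had -1.80 (0.112) and -1.01 (0.0960), Hnf4a -1.28 (0.193) and -1.12 (0.142), and Emx2 at passage 80 -0.40 (0.144).

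Of the 13 other segment factors tested in the list of 26, 6 were lower and 2 higher in the lines at each passage. Over all genes 21.6% were lower at passage 20 and 24% at passage 80, with 36.1% and 39.3% called in either direction. Heyl, a Notch target, was lower by -3.77 ± 0.22 at passage 20 (limma adjusted p = 1.32e-07) and by -4.09 ± 0.22 at passage 80 (7.43e-08). Of 18 renal vesicle genes 11 were lower and 3 higher at passage 20, and 12 lower and 3 higher at passage 80, with the cyclin gene Ccnd1 lower by -3.30 ± 0.21 (limma adjusted p = 2.72e-07) and -3.71 ± 0.21 (1.17e-07), Fgf8 by -2.77 ± 0.34 (5.35e-05) and -2.85 ± 0.34 (4.48e-05), and Wnt4 by -1.68 ± 0.52 (0.0234) and -3.40 ± 0.52 (0.000269). Lhx1os was lower with Lhx1 (-2.72 ± 0.36 at passage 20, limma adjusted p = 9.13e-05). Summed loop of Henle markers lay between 0.832 and 4.48 RPKM in the 8 lines against 33.3 to 1400 RPKM in the 8 primary libraries, with 1 of 12 called lower at each passage, and 2 to 10 of the 14 were listed at 0 in a line. Macrophage markers were at 12.48 to 35.1 RPKM in the lines against 34.0 to 1333 RPKM in primary cells (6 of 10 lower at passage 20), and the part of such cells in the primary levels of the factors was not tested.

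None of the 8 factors was called by limma between passage 80 and passage 20, with Irx3 the most apart (-0.46 ± 0.33, adjusted p = 0.815). Of 13612 genes 0 were called (819 at an unadjusted p under 0.05). Only Irx3 and Emx2 reached 1 RPKM in at least 2 line libraries, so the changes of the other factors are fixed near 0. The fit shares its age term and its spread with the primary libraries and has no term for the line. A lack of calls is therefore not read as likeness of the passages. Among the lines passage coincides with the table set, while the primary libraries hold both sets, and with table set as a term 0 genes were called as well (257 at an unadjusted p under 0.05). With that term the contrast takes in the difference between library 1 and library 2 of the primary ages, so it is not a change of passage alone.

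**Figure D4:**
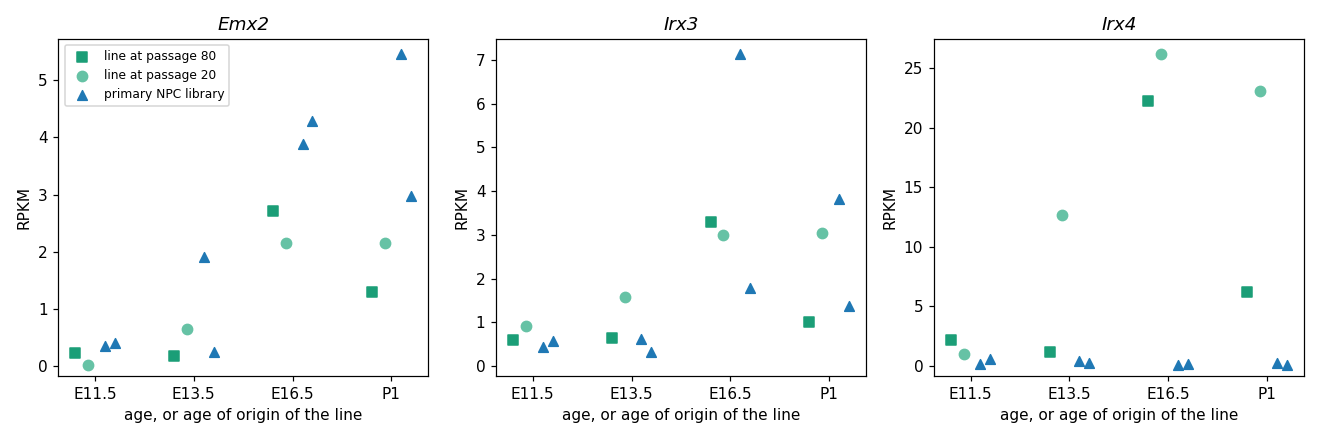
RPKM of Emx2, Irx3 and Irx4 by age, or age of origin for lines, with 1 point per library: passage 80 lines (squares), passage 20 lines (circles) and primary NPCs (triangles). Lines from E16.5 and P1 reach 1.29 to 2.72 RPKM of Emx2, above all early lines, and Irx4 reaches 26.1 RPKM in a line while no primary library exceeds 1.13 RPKM.

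Emx2 and Irx3, the factors that reached 1 RPKM in at least 2 line libraries, were set out by age of origin. Emx2 had 2.16, 2.72, 2.16 and 1.29 RPKM in the late lines (E16.5 at passages 20 and 80, then P1 at passages 20 and 80), against 0.0186, 0.233, 0.657 and 0.170 RPKM in the early lines (E11.5 and E13.5 in the same order). The 2 sets of 4 values did not overlap. With the passages of a line averaged, so that 2 late lines stood against 2 early lines, the log2 difference was 1.28 ± 0.38 and did not pass (limma adjusted p = 0.322, with 0.0441% of 13612 genes called). Irx3 had 2.99, 3.29, 3.05 and 0.997 RPKM in the late lines, against 0.913, 0.605, 1.58 and 0.633 RPKM in the early lines, overlapping sets with a log2 difference of 0.85 ± 0.47 (limma adjusted p = 0.731).

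The late against early difference in lines was then set against that in primary NPCs. Hnf4a was the 1 factor of 8 called, beside 0.713% of genes, with a contrast of -2.20 ± 0.31 (limma adjusted p = 0.0140). Since Hnf4a was listed at 0 in 7 of 8 lines, with about 1 read in the other, its difference in lines is fixed near 0 (-0.01), and the contrast restates its rise with age in primary NPCs with the sign turned. The same holds for Lhx1, Pou3f3 and Irx1, which have few or no reads in the lines. Lhx1 (-1.16 ± 0.27, limma adjusted p = 0.0795), Pou3f3 (-1.95 ± 0.58, 0.137) and Irx1 (-2.12 ± 0.77, 0.204) had negative differences that did not pass, and the difference for Emx2 was -0.36 ± 0.46 (0.635). The Hnf4a call ended without the E11.5, E13.5 or E16.5 line, with an almost unchanged value of -2.19 to -2.21 and limma adjusted p of 0.0896 to 0.106.

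Irx4, the cluster neighbour of Irx2 and a paralog outside the 8, went the other way. It had 0.985 and 2.17 RPKM in the E11.5 line at passages 20 and 80, 12.7 and 1.21 RPKM in the E13.5 line, 26.1 and 22.2 RPKM in the E16.5 line and 23.1 and 6.19 RPKM in the P1 line, against 0.0762 to 0.620 RPKM in the 8 primary libraries of those ages. Every line was above every one of these primary libraries. The log2 change was 3.21 ± 0.58 at passage 20 (limma adjusted p = 0.000908) and 2.23 ± 0.58 at passage 80 (0.00892). Its late against early difference was 2.29 ± 0.37 in lines (limma adjusted p = 0.0644) and exceeded that in primary NPCs by 2.54 ± 0.45 (0.0385). The last call was lost in 8 leave-one-out fits, with limma adjusted p between 0.0563 and 0.218. Irx1 and Irx2, in the same cluster, were at most 0.0733 and 0.259 RPKM in the lines.

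In the withdrawal cultures Lhx1, Hnf4a and Tfap2b were listed at 0 in all 9 libraries. Pou3f3 had 1 read, in the culture without BMP7 for 8 days (0.0199 RPKM), and Irx1 and Irx2 were at most 0.0335 and 0.0756 RPKM. Irx3 was the only factor to pass the filter on low values in this set. It had 0.175 RPKM without BMP7, 0.204 RPKM without CHIR, 0.507 RPKM without heparin and 0.558 RPKM without Y27632 for 4 days, and 1.65, 0.668, 1.22 and 1.43 RPKM after 8 days in the same order, with 1.21 RPKM without LIF for 8 days. Emx2 lay between 0 and 0.428 RPKM.

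With no complete medium library, BMP7, CHIR and LIF withdrawal were each set against the heparin and the Y27632 culture of the same day, and a gene was counted when it differed from both by a log2 of at least 1. With 1 library per condition there is no test. The other 7 factors did not pass the filter in these libraries, and at their levels of under 1 RPKM no loss could reach this fold on the log2(RPKM + 1) scale, so nothing is read from their count of 0. The same limit held for a loss of Irx3 on day 4. On this scale Irx3 was not past the fold for any component. The share of 12189 genes past it was 11.3% without BMP7 on day 4 and 9.45% on day 8, 2.47% and 10.3% without CHIR, and 7.1% without LIF on day 8. With a pseudocount of 0.1, Irx3 was lower past the fold without BMP7 on day 4, beside 1966 of the 12189 genes past it. Irx3 differed from the heparin and from the Y27632 culture by a log2 of -0.36 and -0.41 without BMP7 on day 4 and of 0.25 and 0.12 on day 8. Without CHIR the Irx3 differences were -0.32 and -0.37 on day 4 and -0.42 and -0.54 on day 8, and without LIF they were -0.01 and -0.14 on day 8. Irx4 was past the fold without BMP7 on both days, listed at 0 on day 4 and at 0.0238 RPKM on day 8, against 3.68 and 5.72 RPKM without heparin and 2.83 and 3.73 RPKM without Y27632.

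**Figure D5:**
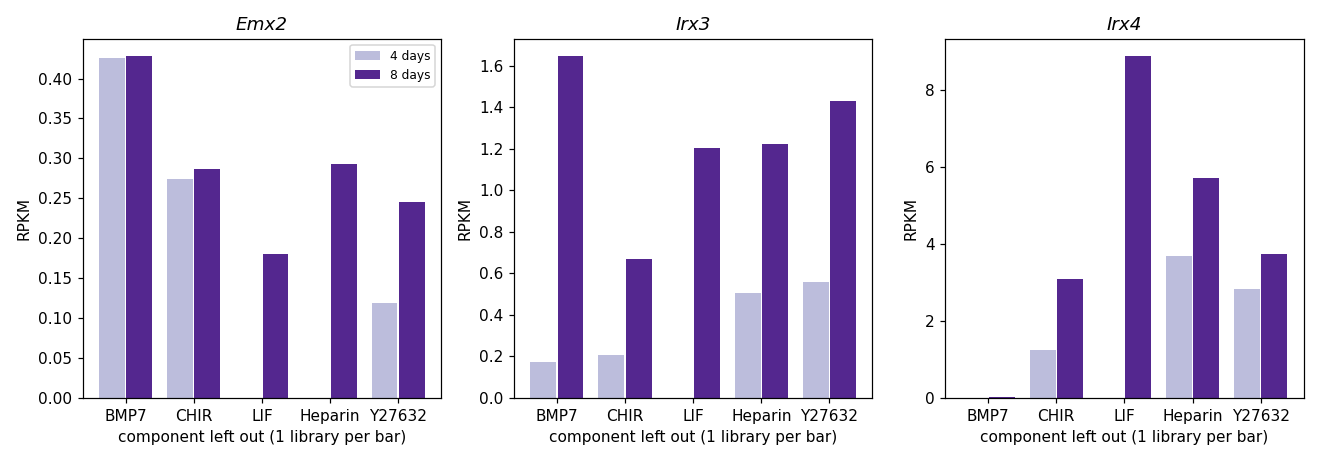
RPKM of Emx2, Irx3 and Irx4 in the 9 withdrawal cultures, 1 library per bar, after 4 days (light) and 8 days (dark); LIF has a bar for 8 days only. Irx3 bars of day 8 exceed those of day 4 for each of the 4 components, and Irx4 is at or near 0 without BMP7 on both days.

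Irx3 was higher on day 8 than on day 4 in 4 of 4 components, by a mean log2 difference of 0.71 ± 0.31 (SD over the 4 components), an observation chosen after its values were seen. It is given as a description. Emx2, which did not pass the filter on low values here, was higher on day 8 in 4 of 4 as well, by 0.14 ± 0.17, and Irx4 by 0.43 ± 0.35. The smallest of these differences were 0.003 for Emx2 and 0.034 for Irx4, which single libraries cannot tell from no difference. The day 4 and day 8 cultures differ in time in culture as well as in time without the component, and these cannot be told apart.

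The NPC signature list that the authors deposited has 1217 symbols, beside 23918 usable symbols in the expression table. It holds 4 of the 8 factors, Pou3f3, Irx3, Emx2 and Tfap2b, and not Lhx1, Irx1, Irx2 or Hnf4a. Of these 4, Pou3f3 and Emx2 were among the factors called higher in Six2-negative cells than in E12.5 NPCs. Irx3 and Tfap2b were not called, though for both genes each Six2-negative library was above each E12.5 library.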

How the data were processed

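RPKM values were deposited by the authors as a single sheet of 29 columns by gene symbol. The submitters' processing notes name STAR, Cufflinks and mm9 for the 20 poly(A) libraries, without versions; the same information for the 9 withdrawal libraries was not given in the sources used here. Of 23947 lines, the last 2, whose values are shifted in 18 libraries, and 27 symbols turned into dates were left out. Low values did not resolve into whole reads for nearly all genes (75.2 to 83.2% within 0.1 of a whole read), so no count test was run.

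Differences were tested with limma 3.58.1 (R 4.3.3) on log2(RPKM + 1) with a variance trend, two-sided, over genes that reached 1 RPKM in 2 or more of the fitted libraries, with Benjamini-Hochberg adjustment over all of them and a threshold of 0.05. All 8 factors passed the filter in both tested fits, 1 of the 8 in the withdrawal set. Primary and Six2-negative libraries (12) were fitted together; 8 primary and 8 line libraries were fitted with age of origin as a term; late against early contrasts used 1 average per line. The fits were tested on simulated data. Alternatives covered the pseudocount, filter, scaling, variance trend, table set, replicate block and each library left out. Numbers shared by libraries did not pair them by any label. The factors, gene lists and tests were chosen with earlier results of these data known; genes outside the 8 are named where they are among the 3 largest called changes of a list, paralogs, partners or among the 3 most alike profiles. Sequences and coordinates of windows come from RefSeq (GRCm38.p6), gene positions from the mm9 annotation. Some planned results are not reported here.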

Additional observations from a re-analysis of the deposited data

Results flagged for a closer look

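Among 14 groups of 4 libraries, 4 held a library apart from the others. Chance flags about 1 in 20 groups, but that rate does not apply to 3 of the 4, in which a single read stands against libraries at 0. Among lines at passage 80, the E11.5 line alone had a Pou3f3 read (0.0130 RPKM), and the E16.5 line had 3.29 RPKM of Irx3 against 0.605 to 0.997 RPKM in the other 3. Among lines at passage 20, Hnf4a was at 0.0189 RPKM in the E13.5 line and Tfap2b at 0.00749 RPKM in the E11.5 line, both 1 read, with the other 3 lines listed at 0. The late against early difference was larger in lines than in primary NPCs for Irx4 (2.54, limma adjusted p = 0.0385). The contrast also passed for Hnf4a (-2.20, 0.0140), which has about 1 read in all 8 lines together, so that its value restates the change with age in primary NPCs.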

How the results depend on the processing

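Counts of the 8 factors called changed by over 1.5 times in few settings. At E16.5 against E11.5, 2 were called with a pseudocount of 0.1 and 2 with the replicate block, against 1. For lines against primary NPCs, 0 were called at passage 20 within the table set that holds those lines, against 3, and at passage 80 1 with table set as a term and 1 within its set, against 4. The late against early contrast of lines with primary NPCs gave 0 with quantile scaling, against 1. Minus-BMP7 on day 4 gave 2 past the fold with a pseudocount of 0.1, against 0. They were Irx3, lower, and Emx2, higher and not past the filter on low values. The cause was not tested. With 1 library left out, the counts ran from 1 to 4 for Six2-negative cells, 1 to 8 for P1 and 1 to 4 for E16.5 against E11.5, 0 to 3 for P1 against E16.5, 1 to 4 for lines at either passage and 0 to 2 for the late against early contrast; such fits have fewer samples, and where they leave an age with a single library its spread is taken from the others.

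The replicate block added Irx3 (adjusted p = 0.0459) and Tfap2b (0.0324) to the calls at P1 against E11.5, giving 8 by limma, and Pou3f3 (0.0347) at E16.5. It changed no other call. Deviations of same-numbered libraries had correlations of -0.08 to 0.37, and no label pairs them.

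Directions turned only for changes that were not called. With table set as a term they turned to 0.020 for Hnf4a in Six2-negative cells, and for passage 80 against passage 20 to 0.68 (Irx1), 0.29 (Irx2), 0.23 (Irx3), 0.16 (Hnf4a), 0.32 (Emx2) and 0.79 (Tfap2b). Passage and table set coincide among the lines, so these passage values take in the difference between the sets in the primary libraries. They are not changes seen between line libraries. For Irx3 in lines against primary NPCs the turned values were -0.046 at passage 20 (table set as a term or within the set) and, at passage 80, 0.18 (likewise) and 0.068 (quantile scaling). Emx2 turned to 0.11 in the late against early contrast (pseudocount 0.1). With 1 library left out, P1 against E16.5 ran from -1.27 to 0.27 for Irx3, -0.35 to 0.34 for Emx2, -0.47 to 1.19 for Pou3f3, -0.16 to 2.21 for Irx1, -0.28 to 1.58 for Irx2 and -0.39 to 2.15 for Tfap2b; Irx3 at passage 80 against primary NPCs ran from -0.28 to 0.033. Passage 80 against passage 20 ran from -0.23 to 0.12 (Lhx1), -0.34 to 0.35 (Irx1), -0.32 to 0.14 (Irx2), -0.30 to 0.29 (Hnf4a), -0.25 to 0.24 (Tfap2b), -0.26 to 0.26 (Pou3f3) and -0.26 to 0.042 (Emx2). Factors under 0.1 RPKM rest on a handful of reads, and changes among them were not detectable at this depth.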
